A study of Mus musculus with 6 samples.

Results

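Mouse embryonic fibroblasts that lack part of the helicase domain of Wrn were set against wild type fibroblasts for how their gene expression changed after hydrogen peroxide. For each probe of a two-colour array, the log2 ratio of treated over untreated cells in wild type cells (WT) was subtracted from the same ratio in the Wrn mutant cells, which the labels call WS. The comparison rests on 4 of the 6 arrays of the study, 2 for WT cells and 2 for WS cells, and genes were described where both WS values lay on one side of both WT values. Of the 41174 probes that are not controls, 40267 had a difference, and 8966 probes of 7717 genes had a value on all 4 arrays and a mean log2 intensity above 6. WT cells carried intact Wrn, and WS cells carried the deletion inside the helicase domain on both alleles. Both came from embryos at day 15 by the labels and were grown in medium with serum, and the mutant mice had a mixed genetic background. Treated cells of both genotypes received 0.5 mM H2O2 for 1 hour and then fresh medium, and RNA was taken 24 hours later. The untreated cells of the same genotype and replicate were the other channel of each array. The 2 replicates of each genotype are labelled as biological, but how many embryos stand behind each is not given in the sources used here, so the spread between them may hold less than the spread between animals. The deletion is carried in the germ line, so every cell of the WS cultures had it from the start.

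The treated cells carried Cy5 and the untreated cells Cy3 on all 4 arrays. A probe's preference for one dye therefore enters both genotypes alike and drops out of the difference. The share of spots left out as outliers was 22.6% on WT replicate 2, 8.81% on WS replicate 2, 2.82% on WT replicate 1 and 0.400% on WS replicate 1. Several list members lost a value this way, so counts over gene lists are also given with the outlier spots kept. Cy5 was well above background for 41.5% to 69.2% of probes on these arrays and Cy3 for 75.8% to 89.4%. Of 16 fibroblast markers, 14 were well above background in both dyes on all 4 arrays, against 5 of 16 macrophage markers, 1 of 12 mast cell markers, 2 of 12 endothelial, 2 of 10 epithelial, 7 of 13 neural and 10 of 24 skeletal muscle markers. In bulk RNA, fewer cells of a type and less RNA per cell cannot be told apart.

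WRN is a RecQ helicase and exonuclease that acts in DNA replication, repair and telomere maintenance, and its loss in people causes Werner syndrome, with early onset of age-related disease. Cells under amino acid shortage, unfolded protein stress or mitochondrial stress phosphorylate the initiation factor eIF2, which lowers translation overall but raises the translation of the transcription factor ATF4. ATF4, with partners such as CHOP and the C/EBP proteins, turns on genes for amino acid uptake, serine and one-carbon metabolism, tRNA charging and glutathione turnover. It binds composite sites for C/EBP and ATF factors, known as CARE or amino acid response elements.

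The genes furthest apart between the genotypes were led by such targets. The upstream sequence of 5 genes is shown because the letters of a CARE core can be read in 4. These 5 are not the 5 genes furthest apart. Each stretch is the 250 bases before the RefSeq gene start, 5′ to 3′ on the gene's strand, from the assembly GRCm38.p6. Capitals mark a match to TGATGNAA or, on the other strand, TTNCATCA.
Chac1, chr2:119350992-119351241, plus strand: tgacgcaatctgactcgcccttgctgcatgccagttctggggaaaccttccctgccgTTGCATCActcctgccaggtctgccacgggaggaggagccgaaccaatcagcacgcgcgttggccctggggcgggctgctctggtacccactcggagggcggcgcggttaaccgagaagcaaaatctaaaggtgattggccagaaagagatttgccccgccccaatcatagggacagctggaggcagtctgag
Vldlr, chr19:27216770-27217019, plus strand: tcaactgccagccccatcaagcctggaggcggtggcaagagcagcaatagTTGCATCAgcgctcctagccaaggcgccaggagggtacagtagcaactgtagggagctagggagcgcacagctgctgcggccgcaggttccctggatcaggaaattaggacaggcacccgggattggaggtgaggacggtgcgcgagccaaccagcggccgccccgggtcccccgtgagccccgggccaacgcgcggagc
Herpud1, chr8:94386179-94386428, plus strand: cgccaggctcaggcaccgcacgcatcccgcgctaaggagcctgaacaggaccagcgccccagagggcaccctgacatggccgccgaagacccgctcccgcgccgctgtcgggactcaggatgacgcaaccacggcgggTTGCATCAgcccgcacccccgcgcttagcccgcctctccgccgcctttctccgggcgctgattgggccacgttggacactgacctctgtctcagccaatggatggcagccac
Asns, chr6:7693210-7693459, minus strand: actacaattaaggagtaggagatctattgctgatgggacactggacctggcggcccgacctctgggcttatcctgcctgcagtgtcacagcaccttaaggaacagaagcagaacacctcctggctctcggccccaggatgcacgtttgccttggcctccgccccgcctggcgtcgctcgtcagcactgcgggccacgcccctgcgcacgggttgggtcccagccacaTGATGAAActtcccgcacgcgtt
Psph, chr5:129787254-129787503, minus strand: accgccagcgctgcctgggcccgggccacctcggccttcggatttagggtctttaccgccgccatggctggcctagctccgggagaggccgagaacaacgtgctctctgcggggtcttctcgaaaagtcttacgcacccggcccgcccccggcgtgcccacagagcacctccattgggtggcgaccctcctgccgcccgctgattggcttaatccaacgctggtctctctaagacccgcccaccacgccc
Chac1, Vldlr and Herpud1 hold the letters TTGCATCA at 193, 200 and 112 bases before the start, and Asns holds TGATGAAA at 23 bases before it. The Vldlr stretch is the second of its 2 annotated starts, and the first start has no match. Psph, which encodes the last enzyme of serine synthesis, has no match in its window. Over all 27025 genes with such a sequence, 1056 (3.91%) hold the core in either orientation. It was found in 8 of the 22 ATF4 and CHOP targets with a sequence (36.4%) and in 3 of 14 genes of serine, one-carbon and amino acid synthesis (21.4%). Among genes with WS below WT by at least 1, described next, it was found in 7 of the 42 with a sequence (16.7%), namely Chac1, Vmn1r42, Nol12, Vldlr, Slco2a1, Smug1 and Herpud1. Aldh1l2, Cth, Gpt2, Mthfd2 and Lonp1, also apart by at least 1, were not among these 7. Asns is outside this group, because its spots on WT replicate 2 and WS replicate 2 were left out as outliers. Among those with WS above WT by at least 1 it was found in 1 of 27 (3.70%). Vmn1r42 and Nol12 belong to a group of probes, described below, for which reading of the named gene was not tested. Chac1, Vldlr and Herpud1 are also counted among the ATF4 and CHOP targets. A match is a description of the letters, not of binding. The antioxidant response core TGACNNNGC, in either orientation, was present in 11.5% of all promoters, in 5 of 42 (11.9%) and 6 of 27 (22.2%) of these groups, and in 6 of 23 NRF2 targets (26.1%). The sterol response core TCACNCCAC was present in 1.22% of all promoters, in 0 of 42 and 1 of 27, and in 1 of 16 cholesterol genes (6.25%). These 3 cores do not contain one another.

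The median log2 response of 10 genes of serine, one-carbon and amino acid synthesis was 0.99 in WT and -0.41 in WS cells, and 9 of them had both WS values below both WT values, as did 31% of all 7717 genes. The median of 10 ATF4 and CHOP targets was 0.63 in WT and -0.11 in WS cells, and 8 had WS below. In the other direction, the median of 11 cholesterol synthesis genes was -1.12 in WT and -0.50 in WS cells, with 8 above in WS, where 28.4% of all genes were. That of 11 matrix and matricellular genes other than collagens was -0.67 in WT and -0.04 in WS cells, with 7 above and 2 below in WS, while collagens divided, 5 above and 3 below of 11. With limma, 0 of 40267 probes passed a difference of 1 on the log2 scale, a mean log2 intensity above 6 and an adjusted p under 0.005, or 0%. The smallest adjusted p was 0.155, for Chac1. At an unadjusted p under 0.05 stood 1375 probes above the intensity threshold. Per gene with all 4 values, these were 412 genes with WS above WT (5.34% of 7717) and 364 with WS below (4.72%). When limma was fitted to the 4 treatment arrays alone, leaving out the 2 arrays of untreated cells, 33 probes passed all thresholds, 8 with WS above and 25 with WS below. What follows is therefore a description of values that do not overlap, with limma's adjusted p where a gene is described in full.

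Both WS values lay above both WT values for 2193 genes (28.4%) and below them for 2389 (31%). A gap of at least 1 on the log2 scale between the nearest values of the genotypes left 39 genes with WS above (0.505%) and 54 with WS below (0.7%). Just inside that gap stood Cdh4 at 1.01 and Smoc2 at 1.00, and just outside Pdk2 at 1.00 and Ero1a at 0.98. Pdk2 was short of 1 before rounding. Of these 93 genes, 15 had further probes, and 14 of the 16 further probes had the same sign of difference.

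**Figure D1:**
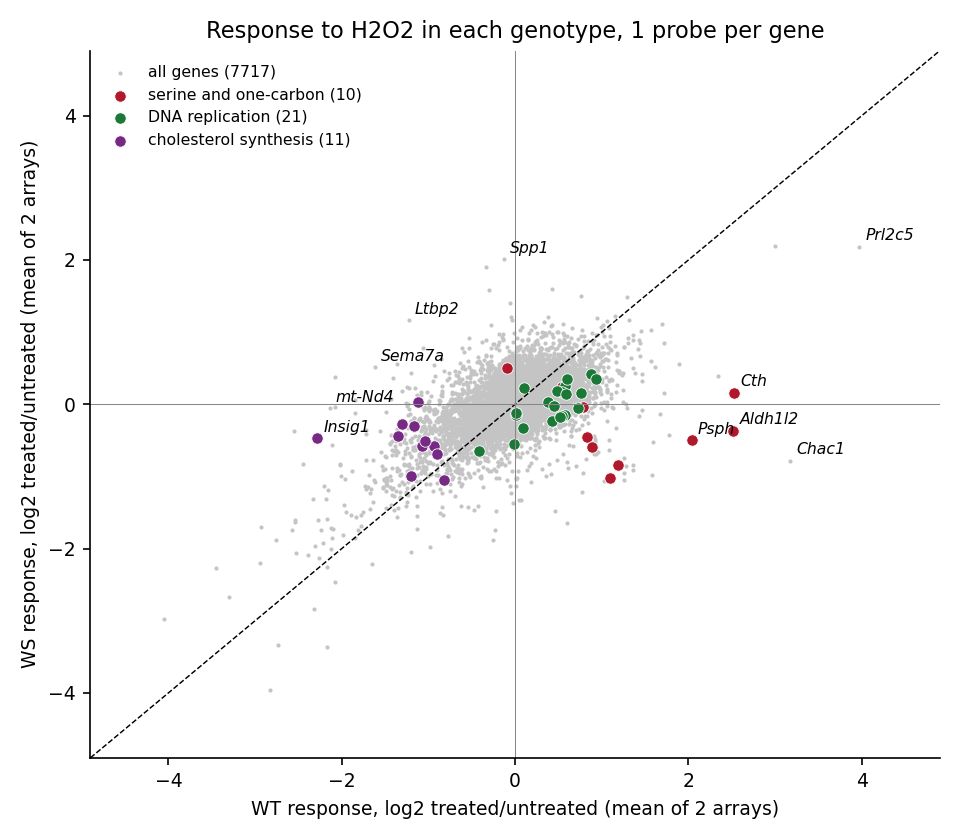
The horizontal axis is the mean log2 treated/untreated ratio of the 2 WT arrays and the vertical axis that of the 2 WS arrays, with 1 grey point for each of 7717 genes. The dashed line marks equal responses. Serine and one-carbon genes (red) lie right of and below it except for Cbs, which lies above it, and Chac1 is labelled at the far right, while 10 of 11 cholesterol genes (purple) lie above it in the lower left.

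Replicates of one genotype were closer to each other than to the other genotype. Over the 7717 genes the ratios correlated with r = 0.852 between the WT arrays, 0.758 between the WS arrays, and 0.488 to 0.595 across genotypes. These correlations run across genes, which are not independent replicates. The WT response was wider, with an SD over genes of 0.59 and 0.47 on the WT arrays and 0.41 and 0.44 on the WS arrays. Genes at least 2-fold higher after treatment numbered 168 and 88 on the WT arrays, and 35 and 102 on the WS arrays. Those at least 2-fold lower numbered 380 and 235 in WT cells, and 167 and 175 in WS cells. The number of higher genes thus overlapped between the genotypes, with WS replicate 2 above WT replicate 2, and the number of lower genes did not.

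Genes picked on 1 array can be read on the others without that choice favouring them. The 88 genes at least 2-fold higher on WT replicate 2 had a median log2 ratio of 1.23 on WT replicate 1, but 0.27 and 0.28 on the WS arrays, where 69.3% and 61.4% of them were above 0. The 380 genes at least 2-fold lower on WT replicate 1 had medians of -0.97 on WT replicate 2, -0.69 on WS replicate 1 and -0.71 on WS replicate 2. In the other direction, the 102 genes at least 2-fold higher on WS replicate 2 had medians of 0.80 and 0.56 on the WT arrays and 0.58 on WS replicate 1. Picks on the other array of each genotype differed less from each other. The 168 genes at least 2-fold higher on WT replicate 1 had medians of 0.37 and 0.46 on the WS arrays, and the 35 at least 2-fold higher on WS replicate 1 had medians of 0.41 and 0.36 on the WT arrays. Genes picked as lower on WT replicate 1 were mostly lower in WS cells too. The 167 genes at least 2-fold lower on WS replicate 1 had medians of -1.61 and -0.96 on the WT arrays and -1.15 on WS replicate 2. The 175 at least 2-fold lower on WS replicate 2 had medians of -1.35 and -0.83 on the WT arrays and -1.06 on WS replicate 1.

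Below, a pair of values gives replicates 1 and 2 of a genotype as log2 treated over untreated, and a difference is the WS mean minus the WT mean on the same scale. Every list count stands beside the shares over all genes, 28.4% with WS above and 31% with WS below. With outlier spots kept these shares were 26.3% and 28.2%. Many list counts were near them. Of the genes with all 4 values and a mean log2 intensity above 6, Chac1 was furthest apart. It encodes an enzyme that degrades glutathione and is a target of ATF4 and CHOP. It stood at 3.35 and 3.0 in WT cells and at -1.04 and -0.53 in WS cells. Both WT arrays were far above 0 and both WS arrays below it. The difference was -3.96 (SE 0.31, n = 2 arrays per genotype, limma adjusted p = 0.155). Aldh1l2, a mitochondrial enzyme of one-carbon metabolism, stood at 2.64 and 2.40 in WT and at -0.60 and -0.13 in WS cells. Its difference was -2.88 (SE 0.26, n = 2 per genotype, limma adjusted p = 0.157). Psph stood at 2.14 and 1.94 in WT and at -0.50 on each WS array, a difference of -2.54 (SE 0.23, limma adjusted p = 0.157). On these probes the 2 genotypes lay on opposite sides of 0, with a gap several times the spread between replicates. These genes were chosen for wide gaps on the same 4 arrays, so the size of the gap is not independent support. The side of 0 also holds any dye preference of the probe. A second, dimmer probe for Aldh1l2 stood at -0.65 and -0.62 in WT and at -1.18 and -1.63 in WS cells, so all 4 of its values were below 0 and its difference was -0.77.

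Serine, one-carbon and amino acid synthesis was the list with the largest negative median. Of its 16 genes, 10 passed the value and intensity filters, and 9 of these had both WS values below both WT values, 7 of them by at least 1, while none had WS above. The median response of the 10 was 0.99 in WT and -0.41 in WS cells, and the median difference was -1.76, against -0.02 over all genes. With outlier spots kept, all 16 could be read, and 14 had WS below and 0 had WS above. In that setting 26.3% of 14128 genes had WS above and 28.2% had WS below. Cth, which makes cysteine from cystathionine, stood at 2.75 and 2.31 in WT and at 0.22 and 0.11 in WS cells. Gpt2, a mitochondrial alanine aminotransferase, stood at 1.25 and 0.95 in WT and at -1.07 and -0.98 in WS cells. Mthfd2, the folate enzyme of mitochondria, stood at 1.31 and 1.08 in WT and at -0.80 and -0.90 in WS cells. Cth stayed near its untreated level in WS cells, whereas Gpt2 and Mthfd2 were below theirs. Mthfd1l (0.77 and 1.01 against -0.54 and -0.64) and Aldh18a1, an enzyme of proline synthesis (0.94 and 0.72 against -0.43 and -0.46), followed the same order at smaller size.

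Several enzymes of this list had a spot marked as an outlier on at least 1 array and are given with those spots kept. Asns, asparagine synthetase, stood at 1.48 and 1.37 in WT and at -1.06 and -0.80 in WS cells. Phgdh, the first enzyme of serine synthesis, stood at 0.36 and 0.51 in WT and at -1.10 and -0.96 in WS cells. Psat1, the enzyme between Phgdh and Psph, stood at 0.88 and 0.81 in WT and at -0.64 and -1.0 in WS cells. With Psph, all 3 enzymes of the serine pathway had both genotypes apart and on opposite sides of 0. Shmt2, which passes the carbon of serine to folate in mitochondria, stood at 0.49 and 0.37 in WT and at -1.12 and -1.22 in WS cells. Its cytosolic counterpart Shmt1 overlapped, at -1.27 and -0.68 in WT and -0.64 and -0.89 in WS cells. Cbs, the enzyme before Cth, also overlapped, at -0.50 and 0.29 in WT and 0.24 and 0.78 in WS cells. The members that overlapped were thus these 2.

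**Figure D2:**
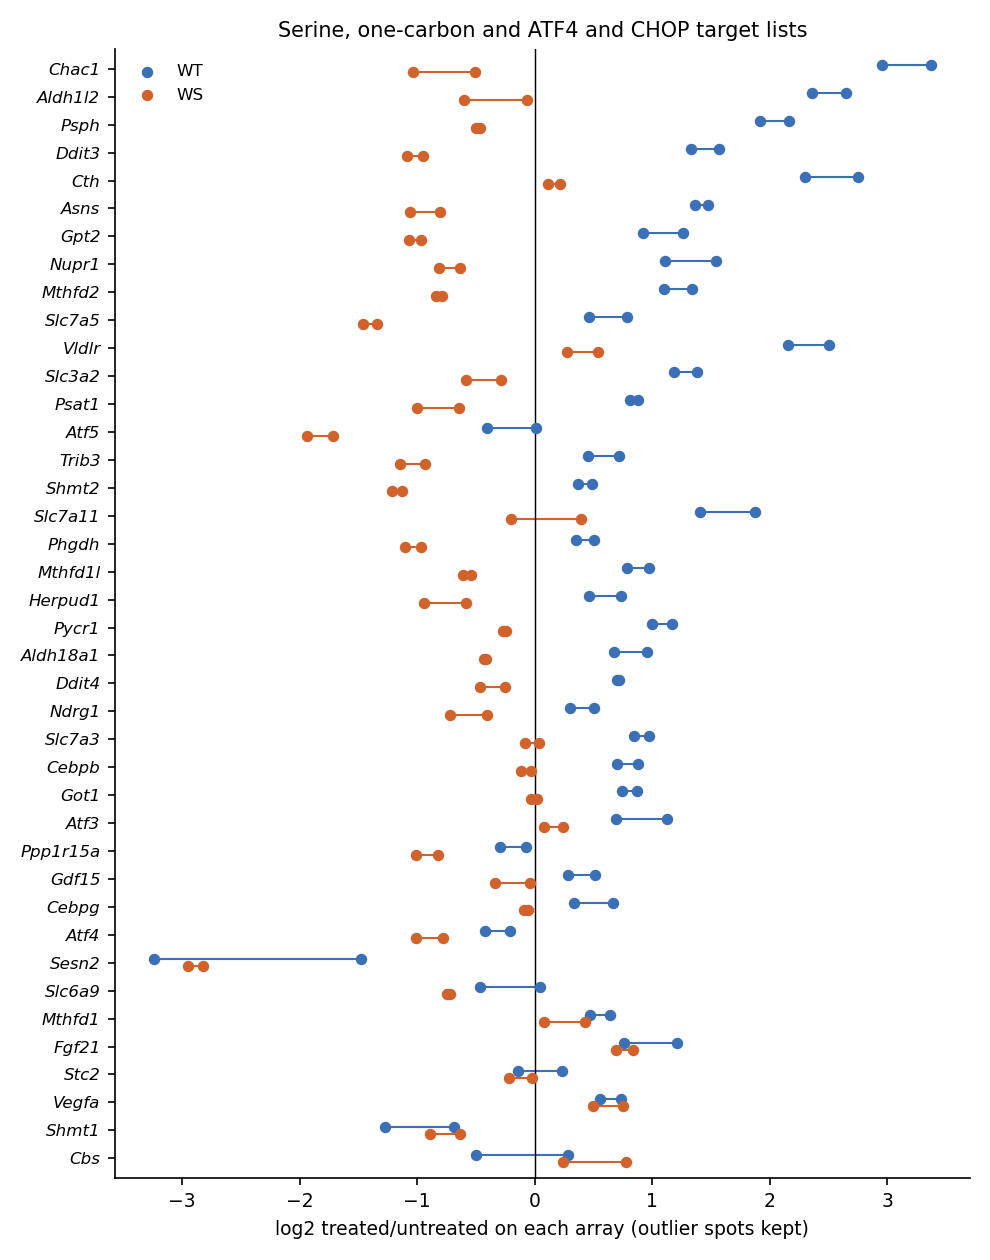
The horizontal axis gives log2 treated/untreated on each array, outlier spots kept, for genes of the serine and one-carbon list and of the ATF4 and CHOP target list, with 2 points per genotype joined by a line. WT points (blue) lie right of WS points (orange) for most genes, and the genotypes overlap at the bottom of the plot, for example for Vegfa and Cbs.

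Among the 25 ATF4 and CHOP targets, 10 passed the filters. Both WS values lay below both WT values in 8 of them, by at least 1 in 4, and above in 0, with a median difference of -0.85. With outlier spots kept, 22 could be read, of which 19 had WS below and 0 had WS above. Without WT replicate 2, the array with the most outlier spots, the count was 19 of 21. Atf4 itself stood at -0.21 and -0.42 in WT and -0.78 and -1.01 in WS cells with spots kept, so it was below its untreated level on all 4 arrays. Atf5, a related factor, stood at -0.45 and -0.06 in WT and at -1.96 and -1.81 in WS cells. Ddit3, which encodes CHOP, stood at 1.57 and 1.33 in WT and at -1.08 and -0.95 in WS cells with spots kept. CHOP was thus the only one of these 3 factors to be above its untreated level in WT cells and below it in WS cells.

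Among the other targets, Vldlr, a lipoprotein receptor, stood at 2.50 and 2.18 in WT and 0.28 and 0.51 in WS cells, and Nupr1, a stress-induced chromatin protein, at 1.54 and 1.11 in WT and -0.64 and -0.81 in WS cells with spots kept. The amino acid transporter genes Slc7a5 (0.79 and 0.46 in WT, -1.46 and -1.34 in WS) and Slc3a2 (1.38 and 1.19 in WT, -0.58 and -0.29 in WS), which form one exchanger, were apart in the same order with spots kept. Both had opposite signs in the genotypes. Herpud1, a component of the degradation of misfolded proteins of the endoplasmic reticulum, stood at 0.71 and 0.49 in WT and -0.59 and -1.0 in WS cells. Trib3, a pseudokinase induced by ATF4, stood at 0.72 and 0.45 in WT and -1.14 and -0.94 in WS cells on a probe with a mean log2 intensity below 6. Another Trib3 probe, above 6 but without a value on all 4 arrays, gave a difference of -5.45, larger than that of Chac1. Sesn2, a sestrin that restrains mTORC1, did not follow the list, at -3.24 and -1.47 in WT and -2.82 and -2.95 in WS cells with spots kept. Vegfa and Stc2 also overlapped.

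Genes outside the written lists that stood near these in size included Lonp1, the protease of the mitochondrial matrix, at 1.61 and 1.57 in WT and -0.55 and -0.50 in WS cells. Cystm1, a small membrane protein, stood at 1.82 and 1.73 in WT and -0.40 and -0.44 in WS cells. Slc1a5, a glutamine transporter, stood at 0.53 and 0.31 in WT and -0.86 and -1.07 in WS cells, and Xpot, the exporter of tRNA from the nucleus, at 0.99 and 0.84 in WT and -0.43 and -0.45 in WS cells. For each of them both WT arrays were above 0 and both WS arrays below it. They were chosen from the genes with a gap of at least 1 for what they encode.

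The aminoacyl-tRNA synthetases, which charge tRNA with amino acids, split in 2 groups. Of 20 genes, 9 passed the filters, 5 with WS below and 3 with WS above, and the median difference was -0.89. With spots kept the counts were 13 below and 2 above of 20. Wars, for tryptophan, stood at 1.09 and 0.75 in WT and -0.49 and -0.52 in WS cells. Eprs, for glutamate and proline, stood at 0.95 and 0.70 in WT and -0.44 and -0.46 in WS cells. Lars, for leucine, stood at 0.94 and 0.53 in WT and -0.33 and -0.34 in WS cells. These were above the untreated level in WT cells and below it in WS cells. Dars, for aspartate, ran the other way, at -0.92 and -1.18 in WT and -0.01 and -0.16 in WS cells, as did Qars, for glutamine, at -1.34 and -1.03 in WT and -0.61 and -0.34 in WS cells.

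DNA replication genes were higher after treatment in WT cells and near the untreated level in WS cells. Of 38 genes, 21 passed the filters, and 16 had WS below WT and 0 had WS above. The gap was under 1 for each of them. The median response was 0.52 in WT and -0.03 in WS cells, with a median difference of -0.45. Mcm6, a subunit of the replicative helicase, stood at 0.60 and 0.56 in WT and 0.07 and -0.36 in WS cells. Tyms, which makes thymidylate, stood at 0.56 and 0.53 in WT and -0.14 and -0.20 in WS cells, and Pold1, the catalytic subunit of polymerase delta, at 0.61 and 0.43 in WT and -0.11 and -0.24 in WS cells. With outlier spots kept, 29 of 37 had WS below and 1 had WS above. Mitosis and spindle genes did not share this order. Of 21, 10 had WS above and 4 had WS below, with a median difference of 0.16, and Ccnb2, a mitotic cyclin, stood at 0.41 and 0.37 in WT and 1.12 and 0.87 in WS cells.

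Targets of NRF2, the factor that controls antioxidant enzymes, had WS below in 8 and above in 2 of the 15 that passed the filters, with a median difference of -0.31. Kept spots gave 15 below and 2 above of 27. Gclc, the catalytic subunit that starts glutathione synthesis, stood at 0.96 and 0.87 in WT and at 0.23 and 0.13 in WS cells. Abcc4, an export pump, stood at 1.50 and 1.44 in WT and 0.30 and 0.33 in WS cells. Both were above 0 on all 4 arrays and lower in WS cells. Ephx1, an epoxide hydrolase, was higher in WS cells, at -0.29 and -0.47 in WT and 0.63 and 0.33 in WS cells. Sqstm1, an autophagy adaptor, stood at 0.95 and 1.38 in WT and -0.39 and -0.27 in WS cells with spots kept, and Slc7a11, the cystine importer that both NRF2 and ATF4 control, at 1.41 and 1.87 in WT and -0.20 and 0.39 in WS cells on a probe with a mean log2 intensity below 6. Hmox1, heme oxygenase, overlapped, at 0.20 and 0.44 in WT and -0.68 and 0.80 in WS cells with spots kept, where the 2 WS arrays had opposite signs.

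Other enzymes against oxidants divided. Among glutathione S-transferases, 5 of the 8 that passed the filters had WS below and 2 had WS above, including Gstp1 (0.53 and 0.58 in WT, -0.14 and -0.17 in WS). The catalase, peroxidase, peroxiredoxin and superoxide dismutase list had 4 above and 2 below of 8, including Gpx3 (-0.69 and -0.42 in WT, 0.27 and 0.02 in WS). Mt2, a metallothionein that binds metal and scavenges radicals, stood at 1.79 and 2.19 in WT and at -0.55 and -0.28 in WS cells with spots kept. Mt1 overlapped on a dimmer probe with a mean log2 intensity of 5.80, below the threshold, at 0.42 and 0.07 in WT and 0.34 and 0.11 in WS cells. The study reported Mt1 as higher in treated WT cells, by array and by RT-PCR.

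Small shifts in one direction ran through 2 large lists. Nuclear-encoded respiratory chain genes had WS below in 11 and above in 3 of 17, with a median difference of -0.22, and Cox5a stood at 0.77 and 0.70 in WT and 0.31 and 0.24 in WS cells. Cytosolic ribosomal protein genes had WS below in 9 and above in 1 of 13, with a median difference of -0.27, and Rpl13 stood at 0.18 and 0.17 in WT and -0.13 and -0.14 in WS cells. With spots kept the counts below were 30 of 39 and 23 of 40. Glycolysis genes had WS below in 3 and above in 0 of 8, and in 12 and 1 of 19 with spots kept. The 3 of 8 is near the 31% of all genes with WS below. With spots kept, 28.2% of all genes had WS below. The glycolysis count below thus rose from 3 of 8 to 12 of 19 when the spots were kept.

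The proliferins, placental hormones of the prolactin family, had high treated over untreated ratios in both genotypes, less so in WS cells. Prl2c5 stood at 3.75 and 4.19 in WT and at 2.56 and 1.81 in WS cells, and Prl2c3 at 3.32 and 2.68 in WT and 2.50 and 1.88 in WS cells. The genes of this family are near-identical, so each probe may read several of them. Nppb, which encodes a natriuretic peptide, was among the lowest in both, at -4.61 and -3.49 in WT and -2.79 and -3.15 in WS cells, with WS above WT. The 2 arrays of untreated cells had Cy5 over Cy3 ratios of the same sign for these probes. They were 3.44 and 3.99 for Prl2c5, 2.95 and 3.51 for Prl2c3, and -3.86 and -2.56 for Nppb. A probe's dye preference stays in the response of a single genotype, and its part in these values was not tested.

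In the other direction, cholesterol synthesis genes were below their untreated level in both genotypes, and further below it in WT cells. Of 24 genes, 11 passed the filters, with WS above in 8 and below in 1. The median response was -1.12 in WT and -0.50 in WS cells, and the median difference was 0.54. With spots kept, 17 of 22 had WS above and 1 had WS below. Insig1, a sterol-sensing brake on this pathway, stood at -2.37 and -2.20 in WT and at -0.29 and -0.65 in WS cells, a difference of 1.82 (SE 0.27, n = 2 per genotype, limma adjusted p = 0.378). Sqle, squalene epoxidase, stood at -1.17 on each WT array and at -0.27 and -0.35 in WS cells. Nsdhl, an enzyme of the later steps, stood at -1.40 and -1.29 in WT and -0.43 and -0.44 in WS cells. All 3 were negative on all 4 arrays. Ebp, a sterol isomerase, was the member with WS below, at -0.85 and -0.79 in WT and -1.0 and -1.09 in WS cells. Lipid genes near this pathway included Scd2, a fatty acid desaturase, at -1.29 and -0.97 in WT and 0.00 and 0.27 in WS cells, and Acly, which makes cytosolic acetyl-CoA, at -1.36 and -1.05 in WT and -0.14 and -0.33 in WS cells.

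Matrix genes other than collagens had WS above in 7 and below in 2 of the 11 that passed the filters, with a median difference of 0.69. With spots kept the counts were 20 above and 3 below of 35. Spp1, osteopontin, stood at -0.32 and 0.06 in WT and at 1.86 and 2.17 in WS cells, a difference of 2.14 (SE 0.27, n = 2 per genotype, limma adjusted p = 0.316). Mfap4, a protein of elastic microfibrils, stood at -1.81 and -0.80 in WT and -0.04 and 0.40 in WS cells. Dcn, the proteoglycan decorin, stood at -1.53 and -0.69 in WT and -0.08 and 0.17 in WS cells. WT cells were below their untreated level for Mfap4 and Dcn, and WS cells were near it, whereas Spp1 was high only on the WS arrays. Thbs1, thrombospondin, was far apart on a probe with a mean log2 intensity below 6, at -3.09 and -2.18 in WT and -0.21 and -0.43 in WS cells. Ccn2, a growth factor-like matrix protein, was one of the exceptions with spots kept, at 0.36 and 0.09 in WT and -1.30 and -1.96 in WS cells. Collagens divided, 5 above and 3 below of 11, with Col5a1 at -1.44 and -1.28 in WT and -0.30 and -0.38 in WS cells and Col5a3 at 0.03 and 0.37 in WT and -0.93 and -0.49 in WS cells. The difference of Col5a3 changed sign, to 0.42, when all its probes were averaged.

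**Figure D3:**
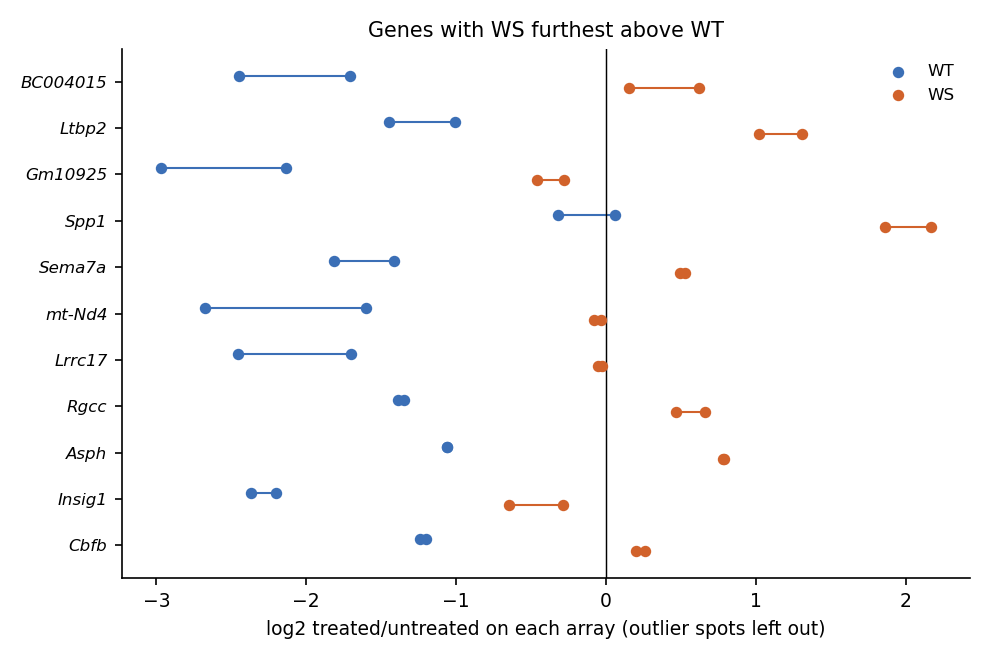
The horizontal axis gives log2 treated/untreated on each array for 11 of the 12 genes with the widest gap among those with WS above WT, outlier spots left out, 2 points per genotype joined by a line. All WT points (blue) lie left of all WS points (orange) of the same gene, and most WT points are at -1 or lower.

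The gene with a known function furthest above in WS cells was Ltbp2, a matrix protein related to those that hold latent TGF-beta. It stood at -1.45 and -1.01 in WT and at 1.02 and 1.31 in WS cells, a difference of 2.39 (SE 0.33, n = 2 per genotype, limma adjusted p = 0.315). Sema7a, a membrane-anchored semaphorin, stood at -1.81 and -1.42 in WT and 0.53 and 0.49 in WS cells, a difference of 2.13 (limma adjusted p = 0.199). Asph, an aspartate hydroxylase of the endoplasmic reticulum, stood at -1.06 on each WT array and at 0.78 and 0.79 in WS cells. All 3 had opposite signs in the genotypes. Rgcc, a cell cycle regulator, stood at -1.39 and -1.35 in WT and 0.47 and 0.66 in WS cells. Lrrc17, a secreted leucine-rich protein, stood at -2.45 and -1.70 in WT and -0.03 and -0.05 in WS cells. The growth factor genes Fgf7 (-0.59 and -0.47 in WT, 0.89 and 0.94 in WS) and Pdgfc (-0.50 and -0.72 in WT, 0.55 and 1.01 in WS) had the same order.

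Proteins of the plasminogen system differed in both directions. Plat, tissue plasminogen activator, stood at -1.53 and -0.87 in WT and at 0.51 and 0.35 in WS cells. Plaur, the urokinase receptor, stood at 1.02 and 1.03 in WT and at 0.05 and -0.21 in WS cells. Plat was thus lower and Plaur higher after treatment in WT than in WS cells. The protease and inhibitor list as a whole had 8 above and 3 below of 18, with Adamts7 at -0.28 and -0.03 in WT and 0.82 and 1.04 in WS cells.

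Folding factors of the endoplasmic reticulum had WS above in 6 and below in 1 of 9, with a median difference of 0.30, and in 12 and 1 of 20 with spots kept. Pdia4, a disulfide isomerase, stood at -0.45 and -0.19 in WT and 0.56 and 0.39 in WS cells. Pdia6, another, stood at -0.22 and -0.12 in WT and 0.45 and 0.40 in WS cells. The exception was Ero1a, which oxidises these isomerases and is also a CHOP target, at 0.22 and 0.55 in WT and -0.76 and -0.90 in WS cells. A second probe for Ero1a, also above the intensity threshold, had a larger difference in the same direction, -2.43. The folding factors thus had the opposite order to the ATF4 and CHOP targets.

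Targets of p53 had WS above in 4 and below in 1 of 7, and in 14 and 4 of 22 with spots kept, where the median difference was 0.32. Trp53inp1, a nuclear partner of p53, stood at 0.70 and 0.83 in WT and 1.43 and 1.58 in WS cells. Ccng1, a cyclin that p53 induces, stood at 0.36 and 0.49 in WT and 1.68 and 1.56 in WS cells with spots kept. Both were above 0 on all 4 arrays and higher in WS cells. Cdkn1a, the inhibitor p21, was close in both, at 0.52 and 0.49 in WT and 0.67 and 0.62 in WS cells with spots kept. The list of CDK inhibitors and senescence genes had 1 above and 3 below of 10.

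Chemokines and cytokines had 4 above and 2 below of 7. Ccl7, a monocyte chemoattractant, stood at -0.21 and -0.07 in WT and 0.96 and 0.85 in WS cells. Cxcl12, which holds blood progenitors in marrow, stood at 0.04 and 0.00 in WT and -1.11 and -0.94 in WS cells. These were the widest gaps in each direction in this list. Macrophage markers, as a list, had 2 of 16 past the filters, both with WS below, and 3 below and 0 above of 5 with spots kept. Their part in the chemokine values was not tested.

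**Figure D4:**
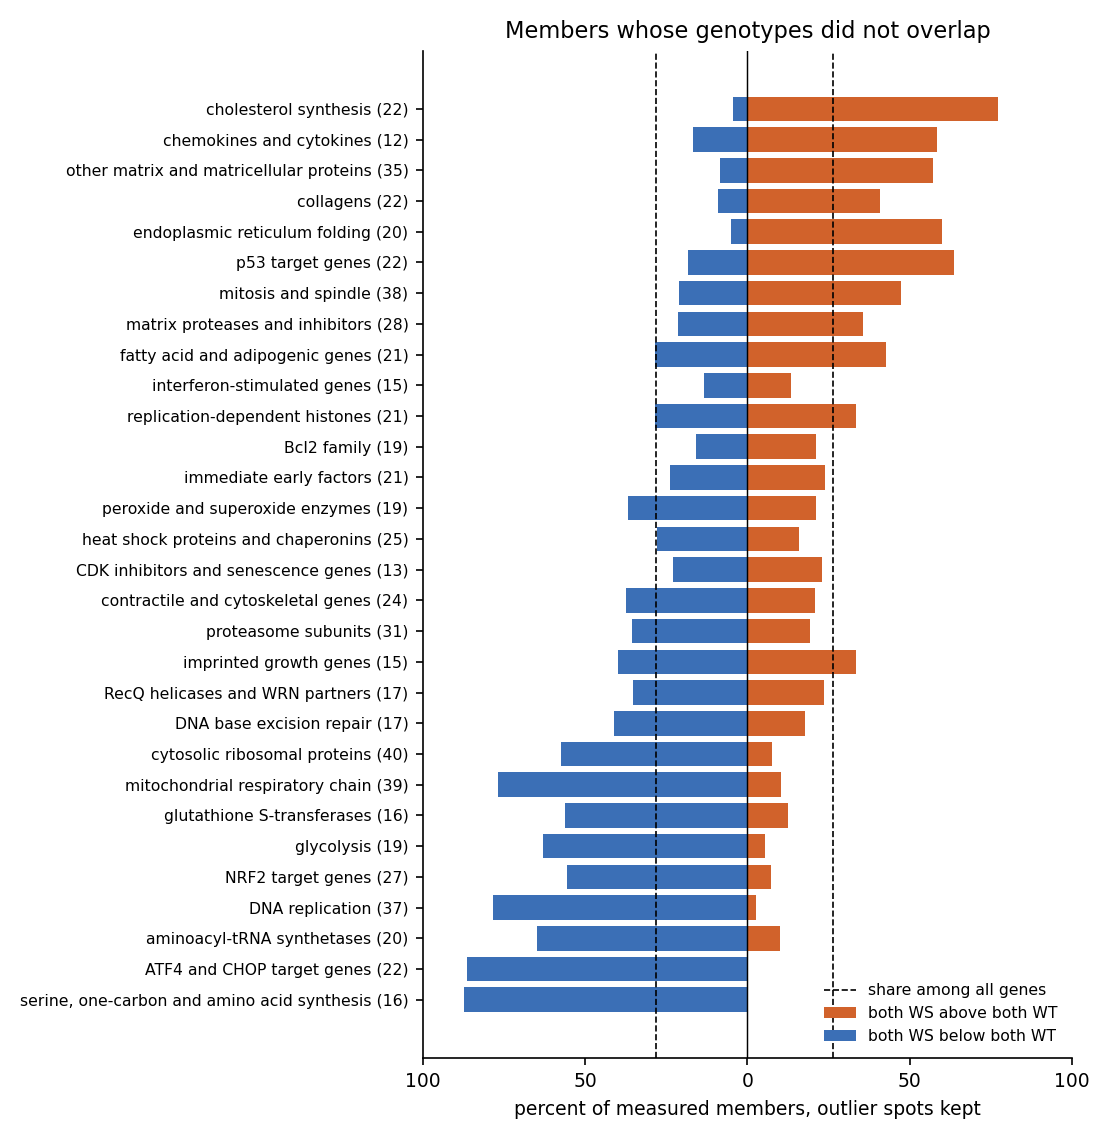
For 30 gene lists, bars to the right give the percent of measured members with both WS values above both WT values and bars to the left the percent with both below, outlier spots kept, with the number measured in brackets. Dashed lines mark the shares over all genes, 26.3% above and 28.2% below. Serine and one-carbon genes, ATF4 and CHOP targets and DNA replication reach furthest left, and cholesterol synthesis furthest right.

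Genes whose response had opposite signs on all 4 arrays numbered 581 with WS up and WT down (7.53%) and 569 with WS down and WT up (7.37%). Among the latter were Klf2, a transcription factor of quiescence (0.08 and 0.06 in WT, -1.30 and -1.36 in WS), Igf2, an imprinted growth factor (0.46 and 0.16 in WT, -0.93 and -0.87 in WS), and Smug1, a uracil-DNA glycosylase (0.47 and 0.95 in WT, -0.69 and -1.02 in WS). A second probe for Igf2 stood at 0.14 and -0.13 in WT and -0.46 and -0.94 in WS cells, so its WT signs differed. The WT values of Klf2 were close to 0, so its signs carry little beyond the low WS values. Myc stood at 0.51 and 0.44 in WT and -0.19 and -0.61 in WS cells, and Cbfb, a partner of RUNX factors, had the other order at -1.20 and -1.24 in WT and 0.26 and 0.20 in WS cells. The remaining lists had small or mixed counts, where 28.4% of all genes had WS above and 31% had WS below. Base excision repair had 1 above and 4 below of 8, with Ogg1, the glycosylase for 8-oxoguanine, at 0.93 and 0.77 in WT and 0.16 and 0.03 in WS cells. RecQ helicases and partners of WRN had 3 above and 4 below of 9, with Blm at 0.96 and 0.69 in WT and 0.42 and 0.33 in WS cells. The proteasome had 1 above and 3 below of 12, interferon-stimulated genes 3 and 2 of 8, the Bcl2 family 3 and 3 of 11, heat shock proteins 1 and 1 of 5 and contractile genes 3 and 3 of 7. Immediate early factors had 4 above and 5 below of 12, imprinted growth genes 4 and 3 of 8, the IGF axis 1 and 4 of 5, fatty acid genes 5 and 3 of 10, and natriuretic peptide genes 1 and 2 of 3. Histones had 5 above and 1 below of 9, with H2bc4 at -0.36 and -0.32 in WT and 0.67 and 0.66 in WS cells, but 7 above and 6 below of 21 with spots kept.

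A group of probes for unrelated genes had nearly one profile. Vmn1r42, annotated as a vomeronasal receptor, stood at 1.38 and 1.78 in WT and -0.95 and -1.01 in WS cells. Zfp235, a zinc finger protein, stood at 1.19 and 1.54 in WT and -0.84 and -0.99 in WS cells, and Nol12, a nucleolar protein, at 0.95 and 1.57 in WT and -0.97 and -1.12 in WS cells. Nol4l, Plekhm3, Slc7a4, Enpp1, Fkbp15 and an unannotated transcript lay close to these, between 0.45 and 1.57 in WT and between -0.67 and -1.08 in WS cells. In each case WT replicate 2 was above WT replicate 1. A second, dimmer probe for Enpp1 had the opposite order, at -0.65 and -0.41 in WT and 0.30 and 0.60 in WS cells, a difference of 0.98 where the first probe gave -1.99. Whether these probes read their named genes was not tested.

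Another such group was mitochondrial. The probe for mt-Nd4, a mitochondrially encoded subunit of complex I, stood at -2.68 and -1.60 in WT and at -0.03 and -0.08 in WS cells. The probe for mt-Cytb stood at -2.40 and -1.74 in WT and -0.09 on WS replicate 1, where WS replicate 2 was an outlier spot at -0.25. A probe designed for mt-Atp6, which the RefSeq table names Gm10925 after a nuclear copy, stood at -2.97 and -2.14 in WT and -0.28 and -0.46 in WS cells, and mt-Co2 at -3.33 and -2.0 in WT and -0.76 on WS replicate 1, where WS replicate 2 was an outlier spot at -0.94. All of these were far below the untreated level on the WT arrays and nearer to it on the WS arrays, where mt-Co2 was the lowest, and WT replicate 1 was lower than WT replicate 2 throughout. The unannotated transcripts BC004015 (-2.45 and -1.71 in WT, 0.15 and 0.62 in WS) and BE368005 (-2.35 and -1.34 in WT, 0.03 and 0.09 in WS) had a similar profile. Nuclear-encoded respiratory chain genes had the opposite order. The RNA is described as total by the labels and as cytoplasmic in the methods, and how far the preparation enters the mitochondrial values was not tested.

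The X inactivation transcript Xist stood at -1.26 and -1.59 in WT and at 0.29 and -0.14 in WS cells, a difference of 1.50 (limma adjusted p = 0.470). None of 4 Y-linked genes was well above background in both dyes on all 4 arrays, with mean log2 intensities of 4.02 to 5.35. Xist differs between treated and untreated WT cells by more than either genotype's replicates differ. On the 2 arrays of untreated cells, read below as likely WS over WT, Xist stood at -1.04 and -0.91. With the direction turned, these values change sign. The sex make-up of the cultures was not given in the sources used here, and its part in these and other differences was not tested.

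Wrn itself has 4 probes, with mean log2 intensities of 5.82, 5.49, 5.65 and 4.26, all below the threshold. The brightest stood at 0.06 and -0.02 in WT and at 0.28 and 0.21 in WS cells, a difference of 0.22 (SE 0.23, n = 2 per genotype, limma adjusted p = 0.967). A probe may lie outside the deleted part, so it checks neither the genotype nor the deletion.

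By arithmetic, a difference between the 2 responses equals the WS over WT difference in treated cells minus that in untreated cells. The 2 further arrays of the study set untreated WS against untreated WT cells directly, as replicates 3 and 4, with RNA other than that of the treatment arrays. The labels and the study's supplement give opposite directions for them. Their Cy5 over Cy3 ratio correlated with r = 0.734 across 7374 genes with the untreated WS over WT difference read from the Cy3 channels of the treatment arrays, and of the 528 genes beyond 1 in both, 99.4% had the same sign. It is therefore given as likely WS over WT. With the sign turned, each value below changes sign.

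Of the genes with WS below WT by at least 1, 51 had a ratio on both untreated arrays, and all 51 ratios were positive on both. Among all 7374 genes, 40.5% were positive on both and 32.1% negative on both. The median of the 51 was 1.94 on replicate 3 and 1.81 on replicate 4, so untreated WS cells likely held these transcripts at higher levels than untreated WT cells. Chac1 stood at 2.62 and 2.05, Aldh1l2 at 3.16 and 2.85 and Psph at 1.49 and 1.21 on the untreated arrays. Added to the difference in response, the median untreated ratio of 1.78 gave a median of 0.20, and 38 of the 51 sums lay within 1 of 0, where 6 of the 51 untreated ratios did. Among all 7374 genes, 6357 sums (86.2%) and 6116 untreated ratios lay within 1 of 0, so the share of the 51 (74.5%) was below that of all genes. Of the 34 genes with WS above by at least 1, 22 were negative on both untreated arrays, 5 positive on both and 7 mixed. Their median untreated ratio was -0.74 and their median sum 0.88, with 17 of 34 sums and 18 of 34 untreated ratios within 1 of 0. The untreated ratio correlated with the difference in response with r = -0.410 over the 7374 genes, with the WT response with r = 0.474 and with the WS response with r = 0.173. These are descriptions across genes. The 2 untreated arrays are read with the same genotype in Cy5, so a probe's dye preference does not drop out of their ratio. Nor does it drop out of the response of a single genotype. How far it enters these counts, sums and correlations was not tested.

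**Figure D5:**
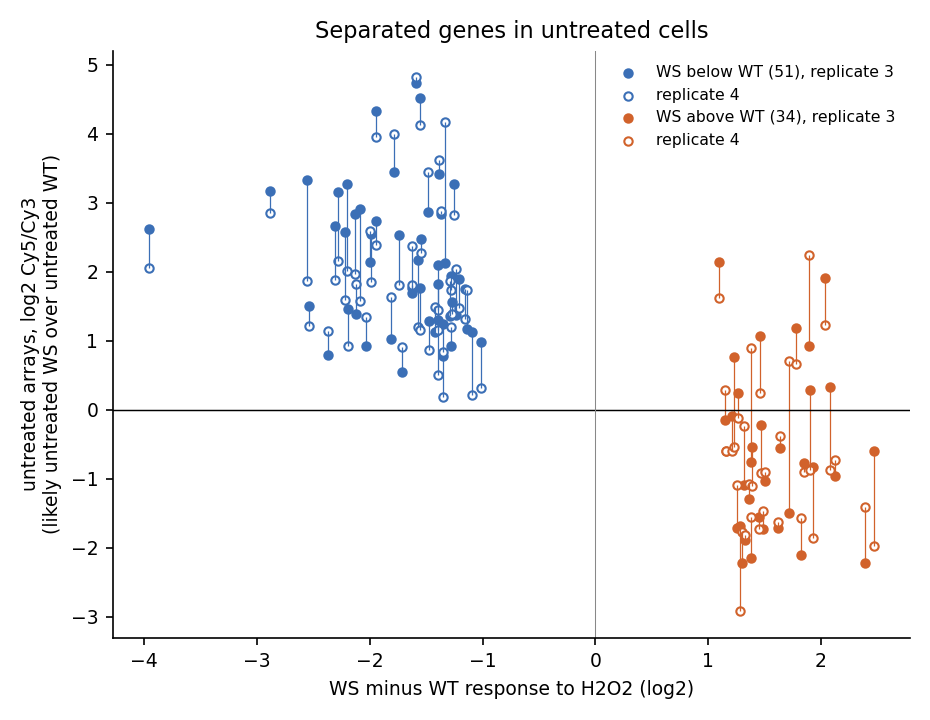
The horizontal axis gives the WS minus WT difference in response (log2) for genes apart by at least 1, and the vertical axis the log2 Cy5/Cy3 ratio on the untreated arrays, likely WS over WT, with replicate 3 filled, replicate 4 open and a line joining them. All 51 genes with WS below WT (blue) lie above 0, while genes with WS above WT (orange) lie mostly below 0.

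The lists differed in this respect. Of 10 serine and one-carbon genes, 8 were positive on both untreated arrays and 2 negative on both, with a median of 1.10. DNA replication genes had a negative difference in response and yet were negative on both untreated arrays in 17 of 20, with a median of -0.32, so they were likely lower in WS than in WT cells before treatment and further apart after it. Cholesterol genes had 3 positive and 3 negative on both of 11, with a median of -0.11. Among single genes with WS above, Lrrc17 at 1.91 and 1.22 and Gas1, a growth arrest protein, at 1.19 and 0.65 were positive on both untreated arrays. Ccl7 was also positive, at 2.98 and 2.17, as was Dcn, at 3.02 and 2.39. For these the genotypes were likely apart in untreated cells in the direction in which they moved further apart.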

How the data were processed

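RNA of WT and WS cells was compared on 6 Agilent whole mouse genome arrays, of which 4 carry the treatment comparison. The authors deposited each spot's mean and local background intensity in Cy3 and Cy5, the flags of Feature Extraction 7.5.1, which have no unit, and its log10 ratio of Cy5 over Cy3. The authors' series table holds log2 ratios, and its columns correlated with the ratios used here with r of at least 0.9995. No other column of per-sample values was left unused.

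Local background was subtracted and loess applied within each array with limma 3.58.1 in R 4.3.3, as in the study's methods. Control and outlier spots were dropped, saturated ones stayed in, and spots of 1 probe were averaged. Where a list is given with spots kept, only the outlier flag was ignored. A single limma model (lmFit, eBayes) held all 6 arrays and 3 coefficients, for the 2 responses and the untreated cells, and the contrast of the 2 responses was tested two-sided with Benjamini-Hochberg adjustment over 40267 probes, with 3 residual degrees of freedom. A gene is represented by its brightest probe with 4 values. The intensity threshold is the mean over both dyes and the 4 arrays. Strong signal in 1 genotype or 1 channel can therefore carry a gene past it. Of 16369 RefSeq accessions, 15402 were named through a RefSeq table of GRCm38.p6, the source of the promoter sequences. Genes named are the 12 of widest gap in each direction, the 8 of widest gap in each direction with opposite signs on all 4 arrays, Wrn, and the 3 of widest gap in each direction in each list, with other list members given for their role, and 3 genes are not reported here. Lists and members were chosen with earlier results of these data known, and the Y-linked genes, Xist and the mitochondrial and similar-profile probes after their values were seen. The procedure was tested on simulated data. Alternatives were normexp, the authors' ratios, scaling between arrays, other thresholds, array weights, a replicate block, the 4 arrays alone and leaving out each array. Depth does not apply to arrays, and 2 arrays per genotype limit the precision. Figures used matplotlib 3.10.9 and pandas 2.3.3 under Python 3.11.15.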

Additional observations from a re-analysis of the deposited data

Results flagged for a closer look

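Among the genes named, 24 had the 2 WT values on one side of 0, the 2 WS values on the other, and a gap of at least 1 between the genotypes. The opposite signs were seen on every array for the probe that represents each gene, but limma found no adjusted p under 0.005 for any of them. On the log2 scale, WS minus WT, the differences below 0 were -3.96 for Chac1, -2.88 for Aldh1l2, -2.56 for Vmn1r42, -2.54 for Psph and -2.28 for Zfp235. They were -2.22 for an unannotated transcript (NAP027948-1), -2.20 for Nol4l, -2.19 for Cystm1, -2.12 each for Gpt2 and Lonp1 and -2.09 for Slc7a4. Smaller ones were -1.56 for Smug1, -1.43 for Wars, -1.40 for Klf2, -1.28 for Eprs and -1.21 for Igf2. The differences above 0 were 2.47 for BC004015, 2.39 for Ltbp2, 2.13 for Sema7a, 1.93 for Rgcc, 1.90 for BE368005, 1.85 for Asph, 1.63 for Plat and 1.45 for Cbfb. A second, dimmer probe above the intensity threshold did not have opposite signs for 2 of these genes. For Aldh1l2 it was below 0 on all 4 arrays, with a difference of -0.77, and for Igf2 it stood at 0.14 and -0.13 in WT and -0.46 and -0.94 in WS cells. With 2 arrays per genotype, no group is large enough to ask whether a single array stands apart.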

How the results depend on the processing

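The number of probes that passed all thresholds was 0 under every alternative run except scaling between arrays (1 probe, of Trib3), array weights (36) and a fit of the 4 treatment arrays alone (33). The last 2 share 31 probes, or 93.9% of the 33 and 86.1% of the 36. Probes at an unadjusted p under 0.05, 1375 as reported, numbered 4464 with normexp, 2191 with scaling, 2391 with no intensity threshold, 449 above a log2 intensity of 8, 3704 with the 4 arrays alone, 3787 with array weights and 0 when an adjusted p under 0.05 was asked instead. Without 1 array they numbered 335 to 660, lowest without WT replicate 1.

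Probes with WS above, 2629 as reported, numbered 6788 with normexp, 5314 with outlier spots kept, 5072 in the series table, 6680 with no intensity threshold and 756 above 8, and 3506 to 5325 without 1 array. Those with WS below, 2706, numbered 6364, 4965, 4768, 7490 and 773 in the same settings, and 3223 to 4759 without 1 array. Fewer values to separate and more probes measured enter these counts by construction. Probes apart by at least 1 with WS above, 45 as reported, numbered 24 with normexp, 98 with spots kept, 96 in the series table, 71 with the ratios of Feature Extraction, 79 with scaling, 72 with no intensity threshold and 15 above 8. Without 1 array they numbered 80 to 245, the highest without WT replicate 2. Those with WS below, 58, numbered 35, 117, 115 and 18 with normexp, spots kept, the series table and above 8, and 91 to 109 without 1 array.

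Deviations from the genotype means by replicate number correlated with r = 0.0945 across genes, so little shared shift by number was seen. Whether replicates of the same number were handled together is not given by the labels, and this correlation cannot decide it. With a replicate block, 0 probes passed all thresholds and 648 stood at an unadjusted p under 0.05.

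Of the named genes, 4 changed sign when all probes of the gene were averaged, Col5a3 to 0.42, Dnajb4 to 0.21, Fosb to -0.12 and Npr2 to 0.032. The other 770 values came from that averaging, normexp, spots kept, the authors' ratios, the Feature Extraction ratios and scaling, and kept direction. All but the averages, read for sign alone, also kept their side of the adjusted p threshold. Array weights and the 4 arrays alone were not among these settings. In both of those fits Chac1, Aldh1l2 and Psph, among others, passed all thresholds. With the sign of the untreated arrays turned, the median of the 51 genes with WS below is -1.78. The list counts with spots kept and without WT replicate 2, chosen after seeing the data, were 13 of 15 for serine and one-carbon genes, 31 of 36 for DNA replication, 21 of 22 for cholesterol synthesis, 25 of 33 for matrix genes and 16 of 19 for folding factors. The cause of these changes was not tested, and probes near background limit what the arrays can separate.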
